A study of Homo sapiens with 6 samples.

Results

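The proteins that copy DNA were followed through the messenger RNAs of 50 human genes, in MDA-MB-231 cells given an X-ray dose of 20 Gy, then 24 h of culture, and in cells left untreated. MDA-MB-231 is an established human breast cancer line of the triple-negative type. The 50 genes were chosen by name, from the known parts of the replication machinery outside the MCM helicase genes. Earlier results of these data were known when they were chosen. They were taken from a table of 61280 gene rows. Each of the 50 symbols had 1 row, and all 50 passed the filter on low values that left 14621 rows for the test. There were 3 control and 3 irradiated libraries. How long the controls were cultured is not stated, so irradiation and time in culture cannot be told apart. Nor do the labels tie replicates to separate cultures, so the p-values rest on a spread among 6 libraries that may be technical.

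Replication starts at origins that are marked by the origin recognition complex. In G1, CDC6 and CDT1 use that complex to load the MCM helicase, and GMNN later binds CDT1 and stops further loading. In S phase the kinase CDC7 with its activator DBF4 and a set of firing factors join CDC45 and the GINS complex to the helicase. DNA polymerase alpha-primase then lays down primers, the clamp loader RFC places the sliding clamp PCNA, and polymerases epsilon and delta extend the leading and the lagging strand. Many of these genes are known targets of the E2F transcription factors, which switch on genes for S phase.

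Of the 50 genes, 7 fell and 1 rose after irradiation, and the other 42 did not pass the test. The 7 that fell were PCNA, GINS2, POLA1, CHAF1B, UHRF1, DBF4 and CHAF1A, and the 1 that rose was POLD4. The values are TPM, a gene's share of the transcripts in its library after correction for length. The test was limma on log2(TPM + 1), with a call at an adjusted p under 0.05. The share of the 50 genes that fell was 14%, beside 4.07% of all tested genes. The share that rose was 2%, beside 6.53% of all tested genes, and 10.6% of tested genes were called in either direction. The median log2 change was -0.02 over the 50 genes and 0.03 over all tested genes, with 23 of the 50 above 0 and 27 below. In the 6792 tested genes within the members' range of mean TPM, 5.93% fell and 7.46% rose. Their median log2 change was -0.01, with 47.7% above 0, beside 46.0% of the 50 genes, so median and signs were close. A lower TPM in bulk RNA cannot tell fewer cells in S phase from less RNA per cell.

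**Figure D1:**
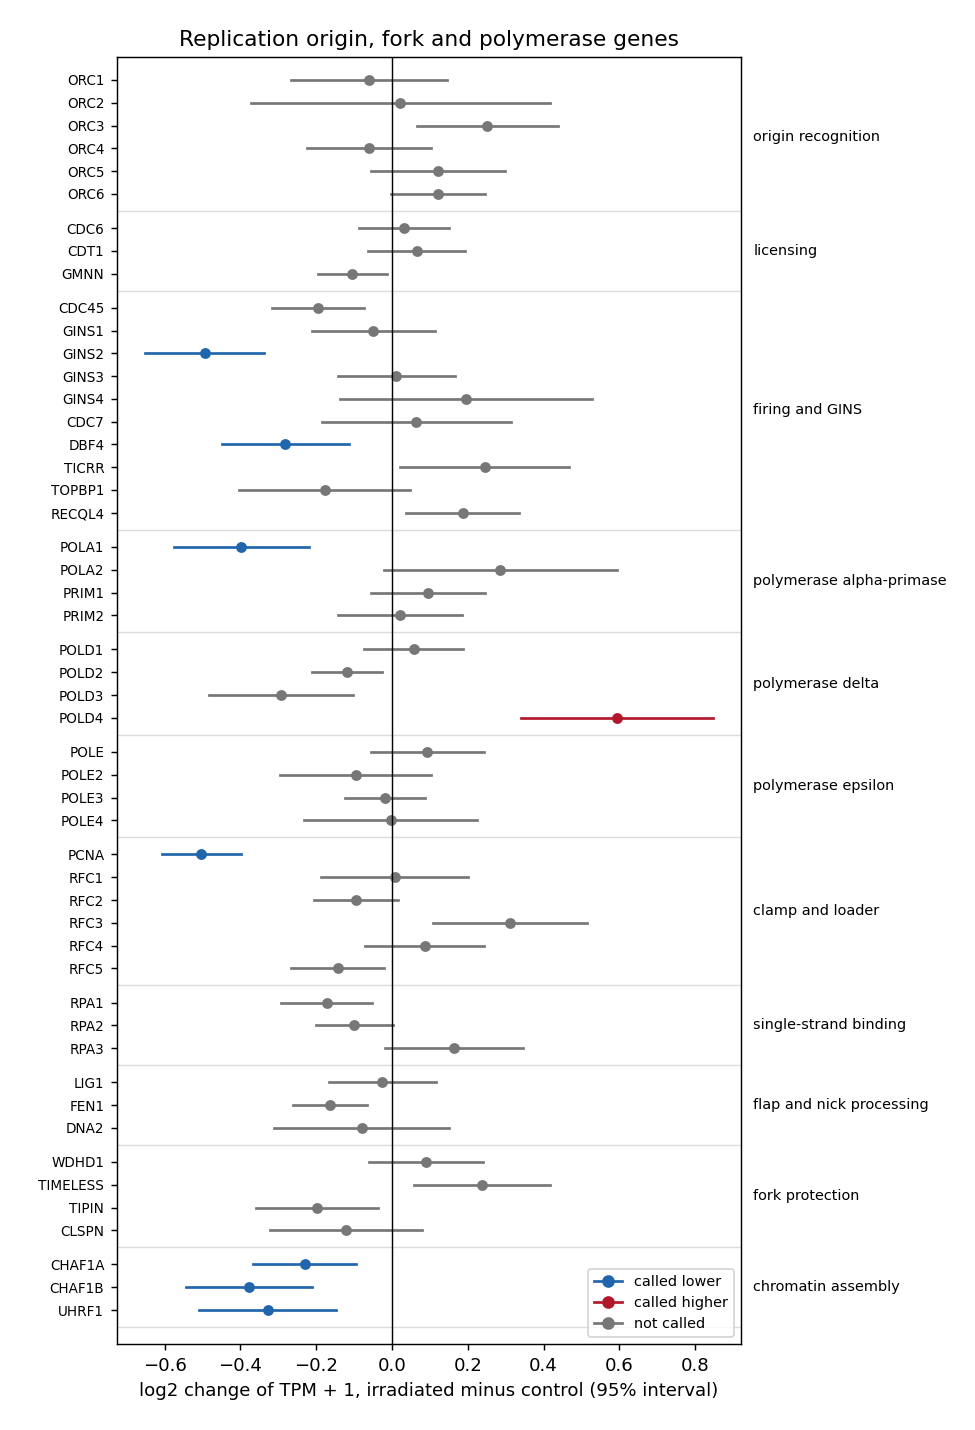
Log2 change of TPM + 1 (irradiated minus control, x axis) for each of the 50 genes (y axis), ordered by role, with points for estimates and bars for 95% intervals from limma, n = 3 per group. The 7 genes in blue fell, POLD4 in red rose to the right at 0.59, and the 42 genes in grey lie between -0.29 and 0.31.

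The promoters of the 6 called genes with the largest changes are shown so that the E2F and CCAAT motifs, counted next over all members, can be seen in place. Each line gives bases before a RefSeq transcription start (GRCh38.p14), read 5′ to 3′ on the gene's strand and shortened where more than 30 bases lay in annotated exons. Where a gene had several starts, a start free of that gene's exons was preferred, and next a start with an E2F motif. The stretches of PCNA (2 windows), UHRF1 (3) and POLD4 (2) were picked in this way. Of all 10 windows of the 7 genes that fell, 5 held an E2F motif. Capitals mark an E2F motif (TTTCCCGC, TTTGGCGC, TTTGCCGC or TTTCGCGC) or the CCAAT motif, on either strand.
PCNA promoter (chr20:5126627-5126815, - strand): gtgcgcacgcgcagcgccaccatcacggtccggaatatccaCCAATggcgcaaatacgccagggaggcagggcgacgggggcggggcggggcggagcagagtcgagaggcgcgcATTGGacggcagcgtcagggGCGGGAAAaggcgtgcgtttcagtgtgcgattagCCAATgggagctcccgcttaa
GINS2 promoter (chr16:85688970-85689204, - strand): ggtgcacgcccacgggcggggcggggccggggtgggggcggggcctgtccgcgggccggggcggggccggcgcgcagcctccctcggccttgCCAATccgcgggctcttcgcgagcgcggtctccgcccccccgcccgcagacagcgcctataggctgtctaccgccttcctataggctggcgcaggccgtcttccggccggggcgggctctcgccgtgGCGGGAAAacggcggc
POLA1 promoter (chrX:24693668-24693917, + strand): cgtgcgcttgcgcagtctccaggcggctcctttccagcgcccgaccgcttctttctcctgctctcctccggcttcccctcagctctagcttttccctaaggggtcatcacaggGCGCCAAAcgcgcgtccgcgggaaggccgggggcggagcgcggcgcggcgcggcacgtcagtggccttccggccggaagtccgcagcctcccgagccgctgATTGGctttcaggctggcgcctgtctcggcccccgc
UHRF1 promoter (chr19:4909894-4910143, + strand): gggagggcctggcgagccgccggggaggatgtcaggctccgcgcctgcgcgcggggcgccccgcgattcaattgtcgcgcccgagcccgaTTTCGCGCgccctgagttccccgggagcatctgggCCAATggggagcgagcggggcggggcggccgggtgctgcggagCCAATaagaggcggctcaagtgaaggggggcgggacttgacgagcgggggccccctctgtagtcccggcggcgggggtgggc
CHAF1B promoter (chr21:36385142-36385391, + strand): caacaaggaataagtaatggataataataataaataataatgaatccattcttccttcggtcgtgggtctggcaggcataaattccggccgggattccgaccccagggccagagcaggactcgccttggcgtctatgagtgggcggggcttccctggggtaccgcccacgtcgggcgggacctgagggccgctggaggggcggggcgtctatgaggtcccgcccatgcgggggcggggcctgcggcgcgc
POLD4 promoter (chr11:67353634-67353846, - strand): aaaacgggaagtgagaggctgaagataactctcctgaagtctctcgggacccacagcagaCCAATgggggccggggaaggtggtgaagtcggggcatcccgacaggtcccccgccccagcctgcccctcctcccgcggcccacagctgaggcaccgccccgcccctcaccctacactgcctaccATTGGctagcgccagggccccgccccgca

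In the printed stretches, PCNA held TTTCCCGC on the opposite strand, 59 to 52 bases before its start, and GINS2 held the same letters 31 to 24 bases before its start. POLA1 held TTTGGCGC on the opposite strand, 137 to 130 bases before its start. UHRF1 held TTTCGCGC, 160 to 153 bases before its start. CHAF1B, which fell, and POLD4, which rose, held none of these letters in the printed stretch. POLD4 held 2 CCAAT matches there, and CHAF1B held none.

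RefSeq windows of 250 bases before to 50 bases after a start were found by symbol for 44 of the 50 genes. An E2F motif was in a window of 20 of the 44 (45.5%). It was in a window of 6.81% of the 10263 tested genes with a window and of 3.99% of all 27305 genes with a window. Of windows of tested genes with a GC content of 60.0% to 69.7%, the middle range of the members, 5.83% held it. Of all 59 windows of the members, at any GC content, 35.6% held it. It was found in 4 of the 7 genes that fell (57.1%) and in 16 of the 36 uncalled genes with a window (44.4%), among them CDC6, CDT1, GMNN and RFC3. The CCAAT motif was in 25 of the 44 genes (56.8%) and in 43.4% of tested genes. The cell cycle homology region, searched as TTTGAA or TTCGAA, was in 2 of the 44 (DBF4 and POLE3) and in 15.5% of tested genes. A match is a run of letters in these windows and not a measured binding site.

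The sliding clamp gene had the lowest adjusted p of the 50. PCNA (ENSG00000132646; hg38 chromosome 20, 5114953 to 5126626), the ring that holds polymerases on DNA, was at 229.66, 219.89 and 240.28 TPM in the controls and at 164.75, 159.11 and 161.50 TPM after irradiation. The groups were far apart and the irradiated libraries lay within a few TPM of each other. PCNA fell from 229.9 ± 10.2 to 161.8 ± 2.83 TPM (SD, n = 3; log2 change -0.50 ± 0.04 SE, adjusted p = 0.00309), or by 29.6%. It passed under all 16 alternative settings, with an adjusted p between 0.00104 and 0.0297. In the controls PCNA and POLD2, a polymerase delta subunit at 215.96 to 225.74 TPM, overlapped as the most abundant of the 50 transcripts. After irradiation PCNA lay below every value of POLD2 (198.15 to 208.94 TPM) and overlapped the flap nuclease gene FEN1 (159.59 to 166.37 TPM).

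None of the 5 genes of the clamp loader RFC passed the test. RFC3, one of its small subunits, was at 38.79, 39.57 and 39.53 TPM in the controls and at 51.70, 42.63 and 53.38 TPM after irradiation (log2 change 0.31 ± 0.09 SE, adjusted p = 0.0618). All irradiated values were above all control values, but irradiated replicate 2 was nearer to the controls than the others were. RFC3 was called higher under 6 of the 16 alternatives, among them both other scalings and the fit without that library (log2 change 0.41). RFC5 was at 55.05 ± 1.36 and 49.8 ± 2.04 TPM (log2 change -0.14, adjusted p = 0.125), and RFC1, the large subunit, was at 31.2 ± 2.83 and 31.4 ± 1.98 TPM. The log2 changes of RFC2 (-0.09), RFC4 (0.09) and RFC1 (0.01) were smaller.

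**Figure D2:**
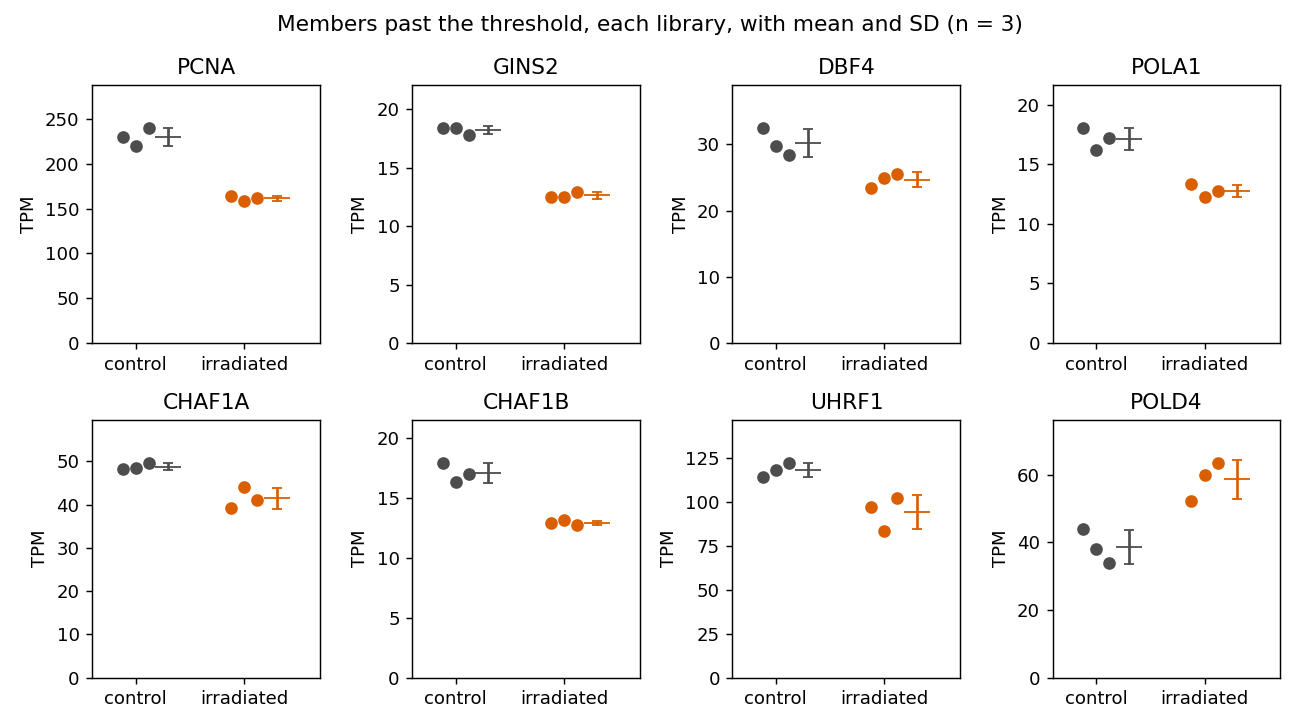
TPM (y axis, from 0) of the 8 called genes in each control (grey) and irradiated (orange) library, with the mean and SD of each group beside the points. In each panel the 3 irradiated points lie wholly below the control points, except for POLD4, where they lie above.

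The GINS complex is made of 4 proteins and links the helicase to the polymerases. GINS2 (ENSG00000131153; chromosome 16, 85676198 to 85690073) was at 18.40, 18.41 and 17.81 TPM in the controls and at 12.46, 12.49 and 12.95 TPM after irradiation. It fell by 30.6% (log2 change -0.49 ± 0.07 SE, adjusted p = 0.00871). Its partners did not pass: GINS1 was at 20.9 ± 0.970 and 20.1 ± 0.901 TPM, GINS3 at 25.7 ± 1.46 and 25.9 ± 0.726 TPM, and GINS4 at 29.3 ± 4.88 and 33.7 ± 5.06 TPM. GINS2 was already the least abundant of the 4 on the TPM scale in every control library. It was called with each library left out in turn (adjusted p up to 0.0485). Without strand information, which the sources used here do not give, reads of GSE1, which overlaps GINS2 on the opposite strand (15.3 and 14.5 TPM), cannot be told from its own.

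CDC45, which completes the helicase with GINS, was at 54.12, 56.44 and 53.87 TPM in the controls and at 46.60, 49.80 and 46.84 TPM after irradiation. The groups did not overlap, and the gene narrowly missed the threshold (log2 change -0.20 ± 0.05 SE, adjusted p = 0.0537). Of the kinase that triggers firing, DBF4 (ENSG00000006634; chromosome 7, 87876216 to 87909541), the activating subunit, was at 32.49, 29.80 and 28.41 TPM in the controls and at 23.46, 24.97 and 25.60 TPM after irradiation. The groups did not overlap, and DBF4 fell by 18.4%, close to the threshold (log2 change -0.28 ± 0.07 SE, limma adjusted p = 0.0489). The catalytic subunit CDC7 was at 22.71, 22.36 and 22.58 TPM in the controls and at 24.82, 19.85 and 26.73 TPM after irradiation (log2 change 0.06, adjusted p = 0.738). Its irradiated values lay on both sides of the controls. The DBF4 call was lost whichever of the 6 libraries was left out (adjusted p 0.0666 to 0.152), and it held under 4 of the 16 alternatives.

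Of the remaining firing factors, none passed. TICRR, which brings CDC45 to origins, was at 11.51 ± 0.229 and 13.9 ± 1.52 TPM (log2 change 0.24, adjusted p = 0.145). RECQL4, a helicase also needed for firing, was at 48.85 ± 3.14 and 55.7 ± 2.30 TPM (log2 change 0.19, adjusted p = 0.107). TOPBP1, a scaffold for firing and checkpoint signalling, was at 49.37, 38.81 and 49.93 TPM after irradiation against 51.33 to 52.45 TPM in the controls (adjusted p = 0.277). Irradiated replicate 2 lay well below the other irradiated libraries, and without it the log2 change of TOPBP1 was -0.06 in place of -0.18.

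Polymerase alpha-primase starts every new strand. POLA1 (ENSG00000101868; chromosome X, 24693919 to 24996986), its catalytic polymerase subunit, was at 18.06, 16.17 and 17.18 TPM in the controls and at 13.31, 12.25 and 12.73 TPM after irradiation. It fell by 25.5% (log2 change -0.40 ± 0.08 SE, adjusted p = 0.0231). The other subunits did not pass: the accessory subunit POLA2 was at 13.8 ± 2.57 and 16.9 ± 1.24 TPM (log2 change 0.29, adjusted p = 0.206), or 0.16 without control replicate 3. The primase genes PRIM1 and PRIM2 had log2 changes of 0.10 (95% interval -0.05 to 0.24) and 0.02 (-0.14 to 0.18). Leaving out any library other than irradiated replicate 2 ended the POLA1 call (adjusted p 0.0508 to 0.0877), as did testing all rows with no filter (0.0508).

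The subunits of polymerase delta, the main enzyme of the lagging strand, spread in both directions. POLD4 (ENSG00000175482; chromosome 11, 67350777 to 67356972) encodes its smallest subunit, whose protein is known to be degraded after DNA damage. Its RNA was at 43.81, 38.07 and 33.82 TPM in the controls and at 52.17, 60.00 and 63.50 TPM after irradiation. It rose by 51.8% (log2 change 0.59 ± 0.11 SE, adjusted p = 0.0198). POLD4 was no longer called without control replicate 2 (adjusted p = 0.0724), without irradiated replicate 3 (0.0602) or with no filter (0.0702). The catalytic subunit POLD1 was at 68.3 ± 2.97 and 71.2 ± 3.32 TPM (log2 change 0.06, adjusted p = 0.547). POLD2, an accessory subunit, was at 220.7 ± 4.90 and 203.2 ± 5.44 TPM (log2 change -0.12, adjusted p = 0.0997), and correction for GC content and length moved it to -0.25, with a call (adjusted p = 0.00808). POLD3, another accessory subunit, was at 25.02, 24.90 and 22.35 TPM against 20.87, 17.96 and 19.64 TPM, without overlap (log2 change -0.29, adjusted p = 0.0618).

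No gene of polymerase epsilon, the main enzyme of the leading strand, passed, and none had an unadjusted p under 0.05 (limma). The catalytic subunit POLE was at 35.4 ± 1.38 and 37.8 ± 2.15 TPM, with a log2 change of 0.09 (95% interval -0.06 to 0.24). POLE3, the most abundant subunit, was at 83.8 ± 2.47 and 82.7 ± 2.02 TPM (interval -0.12 to 0.09). POLE2 had a log2 change of -0.10 (interval -0.30 to 0.10), and POLE4 one of -0.00 (interval -0.23 to 0.23).

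All 3 genes grouped as chromatin assembly fell, beside 4.07% of all tested genes. CHAF1A and CHAF1B encode the large and middle subunits of chromatin assembly factor 1, which binds PCNA and places histones on new DNA. CHAF1B (ENSG00000159259; chromosome 21, 36385378 to 36419015) was at 17.94, 16.30 and 17.01 TPM in the controls and at 12.87, 13.12 and 12.74 TPM after irradiation (log2 change -0.38 ± 0.07 SE, adjusted p = 0.0221). CHAF1A (ENSG00000167670; chromosome 19, 4402662 to 4445018) was at 48.17, 48.39 and 49.68 TPM against 39.25, 44.01 and 41.09 TPM (log2 change -0.23 ± 0.06 SE, adjusted p = 0.0476). UHRF1 (ENSG00000276043; chromosome 19, 4903080 to 4962154), which reads hemimethylated DNA behind the fork for the maintenance methyltransferase, was at 113.82, 117.93 and 122.08 TPM against 97.03, 83.19 and 101.95 TPM (log2 change -0.33 ± 0.08 SE, adjusted p = 0.0396). No irradiated value of these genes reached a control value. The fall was 24.4% for CHAF1B and 20.3% for UHRF1, and CHAF1A fell from 48.7 ± 0.816 to 41.45 ± 2.40 TPM. Leaving out any library other than irradiated replicate 2 ended the calls of CHAF1A (adjusted p up to 0.131) and CHAF1B (up to 0.0857), and leaving out any control or irradiated replicate 1 ended that of UHRF1 (up to 0.117). CHAF1A held under 5 of the 16 alternatives, CHAF1B under 10 and UHRF1 under 9. An exon of UBXN6 on the opposite strand (71.4 and 75.5 TPM) overlaps CHAF1A, an exon of MORC3 on the same strand (11.9 and 9.99 TPM) overlaps CHAF1B, and an exon of SLC25A40 on the opposite strand (9.19 and 11.1 TPM) overlaps DBF4, so some of their reads may be shared. POLD4 likewise overlaps AP003419.1 on its own strand, and CHAF1A also overlaps AC011498.3 on the opposite strand. Neither of these overlapping genes was analysed here.

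The genes that mark and license origins did not pass the test. Of the 6 origin recognition genes, ORC3 alone had an unadjusted p under 0.05, at 25.94, 26.53 and 27.45 TPM against 34.29, 28.55 and 33.14 TPM (log2 change 0.25, adjusted p = 0.0874). ORC6, the most abundant of them, was at 49.0 ± 0.996 and 53.45 ± 2.35 TPM, also without overlap (log2 change 0.12, adjusted p = 0.185). The summed level of the 6 genes was 163.7 to 170.7 TPM in the controls and 166.3 to 188.0 TPM after irradiation, which overlap. The loading factor CDC6, the most abundant licensing gene, was at 105.86, 100.92 and 102.94 TPM against 108.36, 99.48 and 109.11 TPM (log2 change 0.03, 95% interval -0.09 to 0.15). CDT1 was at 33.9 ± 0.475 and 35.5 ± 1.39 TPM (interval -0.06 to 0.19). GMNN was at 94.74, 95.93 and 95.32 TPM against 87.31, 89.19 and 89.34 TPM, without overlap (log2 change -0.10, adjusted p = 0.135).

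Genes of the single-strand binding protein RPA, of flap and nick processing and of fork protection were also uncalled. RPA1, the largest RPA subunit, was at 65.1 ± 2.79 and 57.6 ± 1.15 TPM (log2 change -0.17, adjusted p = 0.0725), RPA2 at 92.6 ± 1.60 and 86.4 ± 2.44 TPM, and RPA3 at 84.1 ± 9.46 and 94.0 ± 2.10 TPM. The flap nuclease gene FEN1 lay on the threshold, at 183.1 ± 6.08 and 163.4 ± 3.47 TPM (log2 change -0.16, adjusted p = 0.0501). The ligase gene LIG1, which seals nicks, had a log2 change of -0.03 (95% interval -0.17 to 0.12), and the nuclease-helicase gene DNA2 one of -0.08. TIMELESS and TIPIN encode partners that travel with the fork and hold helicase and polymerase together. TIMELESS was at 25.48, 25.62 and 26.46 TPM in the controls and at 30.99, 27.77 and 33.37 TPM after irradiation (log2 change 0.24, adjusted p = 0.0936). TIPIN was at 39.71, 42.20 and 39.79 TPM in the controls and at 36.63, 32.26 and 36.95 TPM after irradiation (log2 change -0.20, adjusted p = 0.111). Neither pair of groups overlapped, and the 2 partners lay on opposite sides of their controls. CLSPN, a checkpoint mediator at the fork, had a log2 change of -0.12, which was -0.05 without irradiated replicate 2 and -0.19 without irradiated replicate 3. WDHD1, which ties the polymerase alpha complex to the helicase, had a log2 change of 0.09.

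The intervals of the 42 uncalled genes rest on the spread among 6 libraries, which may be technical. For 39 of these genes the 95% interval of the log2 change lay between -0.5 and 0.5. The widest bounds were -0.48 and 0.59. Of the 42, 13 had an unadjusted p under 0.05 (limma), 8 of them lower and 5 higher, beside 19.5% of the 13071 uncalled tested genes. The 3 irradiated and the 3 control values did not overlap in 25 of the 50 genes, beside 34.9% of all tested genes. Irradiated values were the lower ones in 18 of these, beside 14.5% of tested genes, and the higher ones in 7, beside 20.4% of tested genes. Of the 6792 tested genes in the members' range of mean TPM, they were the lower ones in 1411 and the higher ones in 1328.

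Partner genes were also compared as ratios of TPM within each library, for 8 pairs. The ratio of CDT1 to its inhibitor GMNN was 0.352 to 0.358 in the controls and 0.388 to 0.408 after irradiation. The ratio of TIMELESS to TIPIN was 0.607 to 0.665 against 0.846 to 0.903, and that of GINS1 to GINS2 was 1.11 to 1.18 against 1.54 to 1.69. Both ratios stood well apart between the groups, as log2 differences of 0.45 and 0.48. The ratio of CHAF1A to CHAF1B was 2.69 to 2.97 against 3.05 to 3.35, and that of CDC7 to DBF4 was 0.699 to 0.795 against 0.795 to 1.06, where irradiated replicate 2 all but touched the highest control. For these 5 pairs the exact two-sided permutation test gave p = 0.1, the smallest that 3 against 3 libraries allow, and 0.16 after adjustment over the 8 pairs. The ratios of POLD1 to POLE (exact permutation p = 0.5), PRIM1 to PRIM2 and RPA1 to RPA2 (both 0.2) overlapped between the groups.

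**Figure D3:**
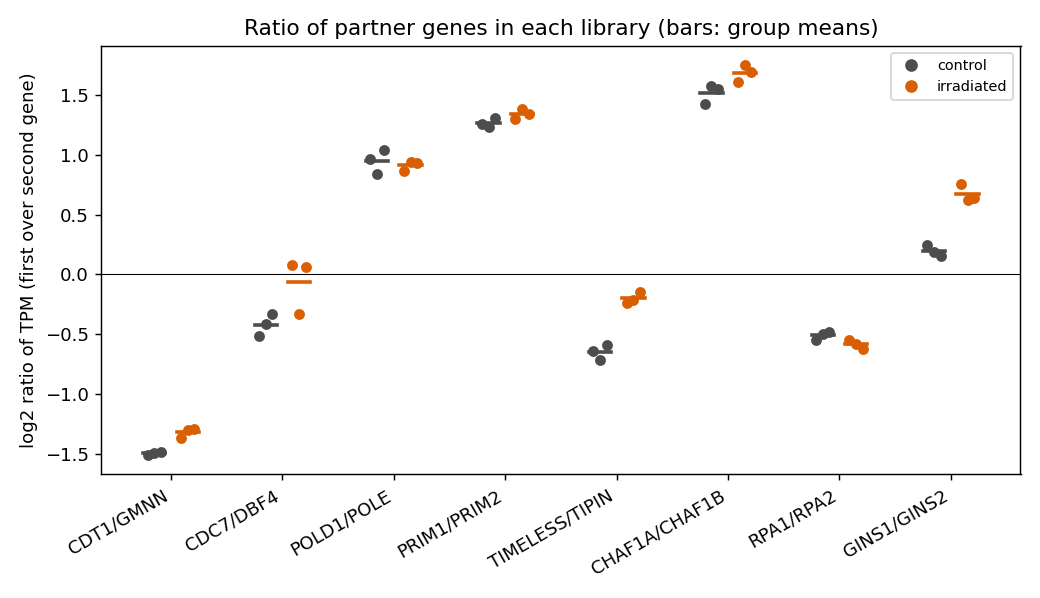
Log2 ratio of TPM of partner genes (y axis) in each control (grey) and irradiated (orange) library for 8 pairs (x axis), with bars at group means. TIMELESS/TIPIN and GINS1/GINS2 were higher in all 3 irradiated libraries, by 0.45 and 0.48, whereas POLD1/POLE overlapped.

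Of all tested genes, 4.07% fell and 6.53% rose. Of 37 other genes of replication, the MCM helicase and nucleotide supply among them, 11 fell (29.7%) and 1 rose (2.70%). Their median log2 change was -0.12. Of the 12 called genes, those with the largest changes were the helicase genes MCM6 (log2 change -0.95), MCM5 (-0.77) and MCM2 (-0.56) and DUT (-0.58), which encodes the enzyme that keeps uracil out of DNA. PCLAF, a PCNA-binding factor named after its value was seen, had a log2 change of -0.81 with wide spread and was not called (adjusted p = 0.0885). The gene that rose, named after its value was seen, was PRIMPOL, a primase that restarts stalled forks (log2 change 0.42 ± 0.08 SE, adjusted p = 0.0247). Of 16 genes that drive or restrain entry into S phase, 5 fell (31.25%) and 1 rose (6.25%), with a median log2 change of -0.16. Those that fell were E2F1 (-0.35), E2F2 (-0.52), E2F8 (-0.40), the cyclin gene CCNE2 (-0.60) and the phosphatase gene CDC25A (-0.26), and the inhibitor gene CDKN1A (0.27) rose. Of 20 genes of G2 and mitosis, 4 fell (20.0%) and 2 rose (10.0%), with a median log2 change of -0.04. Those that fell were MKI67 (-0.57), KIF20A (-0.51), CDC20 (-0.43) and PLK1 (-0.25), and CDK1 (0.49) and HMMR (0.36) rose. The summed level of the 20 genes was 2224 to 2289 TPM in the controls and 2052 to 2240 TPM after irradiation. That of the 16 genes was 666 to 675 and 618 to 675 TPM. The part of cell cycle position in the changes of the 50 genes was not tested.

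Among the irradiated libraries, replicate 2 often held the lowest value. It was the lowest of the 3 irradiated libraries in 33 of the 50 (66.0%), beside 54.7% of tested genes and 56.7% of tested genes in the same range of levels. Without it the count of called genes was 7 lower and 5 higher, beside 3.61% and 6.27% of all genes tested in that fit: CDC45 joined the genes that fell, DBF4 left them, and ORC3, RFC3, TICRR and TIMELESS joined POLD4 among those that rose. The summed level of the 50 genes was 2701 to 2747 TPM in the controls and 2610, 2510 and 2651 TPM in irradiated replicates 1, 2 and 3. Without PCNA the sums were 2472 to 2506 TPM in the controls and 2351 to 2490 TPM after irradiation, which overlap.

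**Figure D4:**
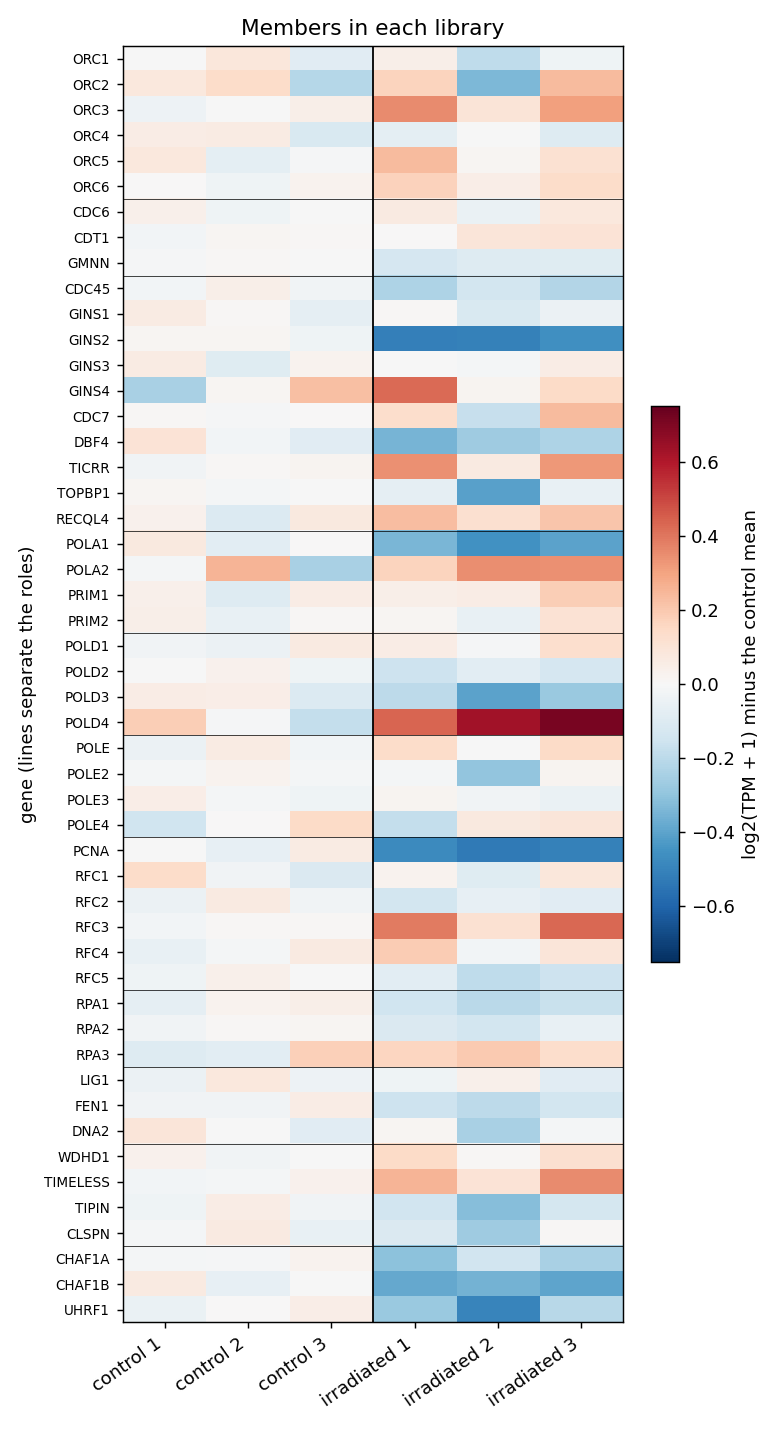
Log2(TPM + 1) minus the control mean (colour) for the 50 genes (rows, in the order of their roles) in each of the 6 libraries (columns). PCNA and GINS2 were low in all 3 irradiated libraries, while genes such as TOPBP1 and UHRF1 were lowest in irradiated replicate 2.

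Across all 14621 tested genes, 955 were called higher and 595 lower, so that 61.6% of calls were higher, beside 47.7% after median-ratio scaling (778 and 852) and 36.4% when GC content and length were corrected for (844 and 1477). Among the 50 genes that correction called 16 lower and 4 higher, beside 10.4% and 5.93% of the genes it tested, and median-ratio scaling called 10 and 2, beside 5.83% and 5.32%. With the correction CDC45, FEN1, GMNN, POLD2, POLD3, RFC2, RFC5, RPA1, RPA2 and TIPIN were called lower as well, DBF4 was not, and ORC3, RFC3 and TIMELESS were called higher beside POLD4. The marker genes of the line were checked. VIM was at 1936 to 2011 TPM in the controls and at 1583 to 1599 TPM after irradiation. It was called lower (limma adjusted p = 0.00479), as was AXL, from 186.7 to 145.7 TPM (limma adjusted p = 0.00921). CD44 (214.8 and 226.4 TPM) and EGFR (69.2 and 66.0 TPM) were not called. ESR1, PGR and CDH1 were at most 0.4 TPM in every library. ERBB2 (20.94 to 27.94 TPM) and EPCAM (8.32 to 11.27 TPM), which had been listed as low in this line, were measured above that. Leukocyte, endothelial and erythroid markers were at or under 1.5 TPM, except for PTPRC at 40.4 TPM in irradiated replicate 1 and for HBB (1.78 to 4.99 TPM) and HBA1 (0.96 to 17.85 TPM) in the irradiated libraries, both listed at 0 in the controls. The part of these in the results was not tested.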

How the data were processed

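Total RNA was made into sequencing libraries with a TruSeq kit, per the labels' protocols. Per the submitters' processing notes, HISAT2, StringTie, RSEM and the build hg38 were used, with no versions or roles given. The authors deposited TPM values per gene, which give shares of a library, so read depth is unknown, and the error of each value is the spread over the 3 libraries of its group. Groups came from the sample titles. At most 0.479% of values were identical in any pair of replicates.

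Rows with at least 1 TPM in at least 3 samples were tested with limma 3.58.1 in R 4.3.3 on log2(TPM + 1), with a mean-variance trend, two-sided, and Benjamini-Hochberg adjustment over all 14621 rows at 0.05. This scale understates changes of low genes. The script was tested on simulated data. Every called member was named, with the uncalled ones in fixed pairs, the most abundant of each role and those with extreme changes; of the other replication genes, up to 4 called ones with the largest changes were named. Promoters are shown for up to 6 called members, by size of change. Other uncalled members, the named drivers of S phase entry and the named genes of G2 and mitosis were chosen after their values were seen. The members and lists were chosen with earlier results of these data known. Coordinates came from GENCODE 29, on the same assembly as hg38, and promoters from RefSeq (GRCh38.p14). The 16 alternatives changed the pseudocount (0.1), the filter (none, or 5 TPM), the scaling (median-ratio or quantile), the variance model (untrended or robust), the gene set (protein-coding), added GC and length terms (known for 97.4% of tested rows) or the replicate block, or left out 1 library.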

Additional observations from a re-analysis of the deposited data

How the results depend on the processing

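A fit that leaves out a library has fewer samples, and the depth behind the TPM values is unknown, so small changes could be missed. The cause of the shifts below was not tested. Of all tested genes, 1550 were called, against 497 with no filter, 993 with eBayes without trend, and 346 to 1414 with 1 library left out. The 7 members called lower became 3 with no filter and 4 with eBayes without trend. They became 16 after GC and length correction, and 2 to 7 with 1 library left out. The share of all tested genes called lower went from 4.07% to 0.637% with no filter and 1.87% with eBayes without trend. It was 10.4% after GC and length correction and 0.923% to 3.61% with 1 library left out. The 1 member called higher became 0 with no filter (limma; 7 at an unadjusted p under 0.05), 2 with a filter of 5 TPM, 2 after median-ratio scaling, 3 after quantile normalization, 4 after GC and length correction, 2 with protein-coding genes only, and 0 to 5 with 1 library left out. The share of all tested genes called higher went from 6.53% to 0.908% with no filter and 8.54% with a filter of 5 TPM. It was 5.32% after median-ratio scaling, 6.18% after quantile normalization and 5.93% after GC and length correction. With protein-coding genes only it was 9.11%, and with 1 library left out 1.48% to 6.27%. No called member changed direction in any setting run.

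Replicate numbers are shared by the groups. Deviations of same-numbered samples had correlations of 0.031, -0.055 and -0.025, and 2 of 6 samples correlated best with their own number. With so few samples, these values cannot show whether same-numbered samples share more than a number, and the labels do not say. With the replicate block, 362 of the 14621 tested genes were called, 1.04% lower and 1.44% higher. Of the 50 members, 1 was called lower (PCNA) and 0 higher. In that limma fit GINS2 had an adjusted p of 0.0502, and 5 higher members had an unadjusted p under 0.05.

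Some uncalled log2 changes crossed 0. After median-ratio scaling these were ORC2 (-0.008), GINS3 (-0.018), PRIM2 (-0.009) and RFC1 (-0.023). After quantile normalization they were ORC2 (-0.002), POLE3 (0.002) and POLE4 (0.010), and after GC and length correction CDT1 (-0.050) and POLD1 (-0.054). With 1 library left out the ranges were -0.111 to 0.005 for ORC1, -0.086 to 0.200 for ORC2, -0.033 to 0.043 for GINS3, -0.021 to 0.184 for CDC7, -0.022 to 0.060 for PRIM2, -0.154 to 0.003 for POLE2, -0.037 to 0.005 for POLE3, -0.077 to 0.084 for POLE4, -0.048 to 0.075 for RFC1, -0.057 to 0.015 for LIG1, -0.128 to 0.002 for DNA2, and -0.091 to 0.007 for the ratio of POLD1 to POLE. Other uncalled log2 changes of at least 0.1 in size kept their sign but moved by over 1.5 times: RPA3 (0.164) was 0.254 without control replicate 3, with a call, GINS4 (0.196) was 0.075 without control replicate 1, 0.309 without control replicate 3 and 0.082 without irradiated replicate 1, and ORC5 (0.120) was 0.063 without irradiated replicate 1. GC and length correction moved FEN1 to -0.257, with a call, ORC6 to 0.064 and RECQL4 to 0.083.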
